A study of Mus musculus with 2 samples.

Results

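Pnoc, Aqp5, Vat1l, Samd5, C1qtnf7, Ptn and Pde1c are 7 of the 32285 genes in the count tables. They were chosen from measured values in these same data, because their levels in Wt1-positive cells differed strongly between the low-fat and the high-fat library. Those differences are therefore a description here and carry no test. What was asked beyond them was in what share of cells the transcript was detected, how much of it the positive cells held, and which cells these were.

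The cells came from male Cyp1a1Cre x R26LSL-eYFP mice, in which Cre driven by the Cyp1a1 promoter leaves a lasting eYFP mark in any cell that has had Cyp1a1 activity, at collection or earlier. Mice were on LFD (D12450J, 10% fat) or HFD (D12492, 60% fat) for 12 weeks, and both groups were given FICZ, a ligand of the aryl hydrocarbon receptor (AHR), at 10 mg/kg 5 days before the perigonadal white adipose tissue (gWAT) was taken. Live eYFP+ cells of the stromovascular fraction were sorted and made into 1 10x Genomics library per diet from pooled mice. The LFD library kept 10216 of 11281 barcodes and the HFD library 8537 of 9631, with medians of 10636.5 and 13231 unique molecular identifiers (UMIs, 1 for each captured transcript) per cell. With 1 library for each diet, mouse, sort, library and diet cannot be told apart, and every interval below is a 95% interval for counting error only.

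Wt1 encodes a transcription factor of the mesothelium, the epithelium-like sheet that covers visceral organs and fat pads, and of stromal progenitors in visceral fat. Mesothelial cells carry keratins and uroplakins on top of a mesenchymal programme. Of the 7 genes, 3 encode secreted proteins: Pnoc the precursor of nociceptin, the opioid-related peptide that acts on the receptor Oprl1, C1qtnf7 a relative of adiponectin with C1q and TNF homology, and Ptn the heparin-binding growth factor pleiotrophin. Aqp5 encodes a water channel best known from glands and lung. Pde1c encodes a calmodulin-dependent phosphodiesterase that breaks down cAMP and cGMP, Samd5 a protein with a SAM domain and Vat1l a relative of the vesicle protein VAT1.

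All 7 are protein-coding genes. In GENCODE M21 on GRCm38 they lay at chr14:65400673-65425472 (Pnoc, minus strand), chr15:99590782-99594829 (Aqp5, plus), chr8:114205612-114374071 (Vat1l, plus), chr10:9622936-9675208 (Samd5, minus), chr5:43515538-43618803 (C1qtnf7, plus), chr6:36714929-36810220 (Ptn, minus) and chr6:56069804-56569103 (Pde1c, minus). None overlapped another gene of the count table on the same strand.

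The RefSeq promoter table (GRCm38.p6, 250 bases before to 50 after the start) held 6 of the 7 genes. The promoters of 2 genes that were higher in HFD and 2 that were lower are shown, since the cells were sorted on a lasting mark of Cyp1a1 activity. Cyp1a1 is a target gene of AHR, and AHR binds DNA at the core GCGTG. Capitals mark each GCGTG on either strand (read as CACGC on the strand printed).
Aqp5, chr15:99590778-99591077, plus strand: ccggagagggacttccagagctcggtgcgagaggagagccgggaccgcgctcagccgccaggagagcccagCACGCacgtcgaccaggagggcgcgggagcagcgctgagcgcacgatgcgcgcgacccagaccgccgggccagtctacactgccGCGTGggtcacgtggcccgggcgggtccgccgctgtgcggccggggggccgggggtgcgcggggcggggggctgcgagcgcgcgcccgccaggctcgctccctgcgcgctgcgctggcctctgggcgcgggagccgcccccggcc
Samd5, chr10:9675159-9675458, minus strand: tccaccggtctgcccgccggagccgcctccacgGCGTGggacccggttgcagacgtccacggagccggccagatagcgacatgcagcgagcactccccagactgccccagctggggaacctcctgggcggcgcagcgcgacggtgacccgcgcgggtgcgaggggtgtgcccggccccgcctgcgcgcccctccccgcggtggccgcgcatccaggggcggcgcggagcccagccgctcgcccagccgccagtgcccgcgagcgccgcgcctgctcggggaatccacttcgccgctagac
C1qtnf7, chr5:43515319-43515618, plus strand: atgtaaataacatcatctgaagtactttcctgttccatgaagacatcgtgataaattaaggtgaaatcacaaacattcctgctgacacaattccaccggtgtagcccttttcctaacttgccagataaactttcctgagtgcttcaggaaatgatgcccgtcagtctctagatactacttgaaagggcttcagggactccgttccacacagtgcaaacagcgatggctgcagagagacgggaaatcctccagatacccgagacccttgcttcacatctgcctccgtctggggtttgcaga
Ptn, chr6:36810130-36810429, minus strand: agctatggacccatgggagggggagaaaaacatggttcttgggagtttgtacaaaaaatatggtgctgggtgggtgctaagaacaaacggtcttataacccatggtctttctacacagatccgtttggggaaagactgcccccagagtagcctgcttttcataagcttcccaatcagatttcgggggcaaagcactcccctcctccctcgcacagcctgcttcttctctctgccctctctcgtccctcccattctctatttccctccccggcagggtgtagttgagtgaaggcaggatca

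GCGTG occurred at 2 places in the Aqp5 window and at 1 in the Samd5 window. It was in none of the windows of C1qtnf7, Ptn, Pde1c (3 windows) and Vat1l, the last also higher in HFD, and 32.4% of the 32851 promoters of the table held it. The Aqp5 and Samd5 windows were also rich in G and C, at 79.7% and 77.3%, with 46 and 43 CpG dinucleotides. The C1qtnf7 and Ptn windows had 46.7% and 52% G and C, with 8 and 6 CpG, and that of Vat1l 54.3% with 14 CpG, around a median of 52.7% over all promoters. The letters TATAAA, held by 13.6% of promoters, were in none of the 6 genes' windows. A match describes the sequence and shows no binding.

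Wt1-positive (Wt1+) cells were taken as cells with at least 1 Wt1 UMI and without the markers of immune, endothelial, mural or fibroblastic progenitor-like cells. There were 5729 in LFD and 3548 in HFD, with medians of 12697 and 17443 UMIs and of 4 and 6 Wt1 UMIs. The stroma marker Pdgfra was detected in 91.4% and 84.3% of them, and a keratin (Krt7, Krt8, Krt18 or Krt19) in 46.6% and 71.9%. The label therefore covers stromal cells along a range of mesothelial character, and that range itself differed between the libraries. Of 13 mesothelial markers in Wt1+ cells, 6 were at least 2-fold higher in HFD and none 2-fold lower, against 2.57% and 2.55% of all genes with at least 50 UMIs, for example the uroplakin Upk3b at 37.6 and 143 CPM (UMIs scaled to a total of 1000000) and the claudin Cldn15 at 19.6 and 74.5 CPM. Wt1 itself was at 316 and 351 CPM.

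Pnoc was at 30.1 CPM in LFD Wt1+ cells (2301 UMIs) and 508 CPM in HFD (32040 UMIs), a ratio of 16.9 (16.2 to 17.6). No other of the 13827 genes with at least 50 UMIs had a higher ratio. Aqp5 was at 10.8 and 85.8 CPM, 7.95-fold higher in HFD (7.38 to 8.56). Vat1l was at 6.88 and 27.4 CPM, 3.99-fold higher (3.61 to 4.40), and Samd5 at 3.81 and 14.4 CPM, 3.78-fold higher (3.31 to 4.32). These 4 are the genes chosen as higher in HFD.

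The other 3 were lower in HFD. C1qtnf7 was at 19.4 CPM in LFD against 2.46 CPM in HFD, 7.90-fold lower (6.69 to 9.39). Ptn was at 46.7 and 7.19 CPM, 6.49-fold lower (5.89 to 7.17). Pde1c was at 5.70 and 0.349 CPM, 16.3-fold lower (10.7 to 26.3), with only 22 UMIs left in HFD. Under a mitochondrial limit of 5%, which left 1105 LFD and 823 HFD cells, Ptn was 2.80-fold lower and Pde1c 8.79-fold lower. With at least 3 other mesothelial markers required in place of Wt1, Ptn was 3.94-fold lower and Vat1l 2.52-fold higher. As background, 2.57% of the 13827 genes were at least 2-fold higher in HFD Wt1+ cells and 2.55% at least 2-fold lower, and the median gene stood at 0.10 on the log2 scale. Since the genes were picked on this contrast, nothing is read from all 7 passing 2-fold.

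The shifts were looked at next in each kind of Wt1+ cell, with cells grouped as cycling (at least 4 of 8 cell-cycle markers), keratin-high (at least 500 CPM of summed keratins) or keratin-low. In keratin-low cells (4103 LFD, 2018 HFD), where 2.11% of genes were 2-fold higher and 2.72% 2-fold lower, Pnoc was at 32.0 and 418 CPM, Aqp5 at 9.38 and 72.1 CPM, and all 7 genes passed 2-fold in their own direction. In cycling cells (954 and 646), against 1.82% and 1.5%, Pnoc was at 14.4 and 308 CPM and Aqp5 at 8.09 and 98.6 CPM, and 6 genes passed 2-fold while Pde1c had too few UMIs to count. In keratin-high cells (672 and 884), against 1.99% and 1.02%, Pnoc reached its highest level, 47.3 CPM in LFD against 904 CPM in HFD. Of the 6 genes with enough UMIs there, 3 were 2-fold higher and 2 were 2-fold lower. Mesothelial markers also differed within each kind, with 6 of 12 measured 2-fold higher in HFD in keratin-low, 6 of 13 in cycling and 4 of 13 in keratin-high cells and none 2-fold lower, and their part in the shifts was not tested.

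Samd5 was the exception in keratin-high cells. It was at 6.39 and 10.95 CPM there, 1.71-fold higher in HFD (1.27 to 2.34), against 4.64-fold (3.84 to 5.63) in keratin-low cells, where it was at 2.86 and 13.2 CPM. Ptn also differed less in keratin-high cells, at 6.71 and 2.98 CPM, 2.26-fold lower, than in keratin-low cells, at 60.5 and 8.60 CPM, 7.03-fold lower.

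**Figure D1:**
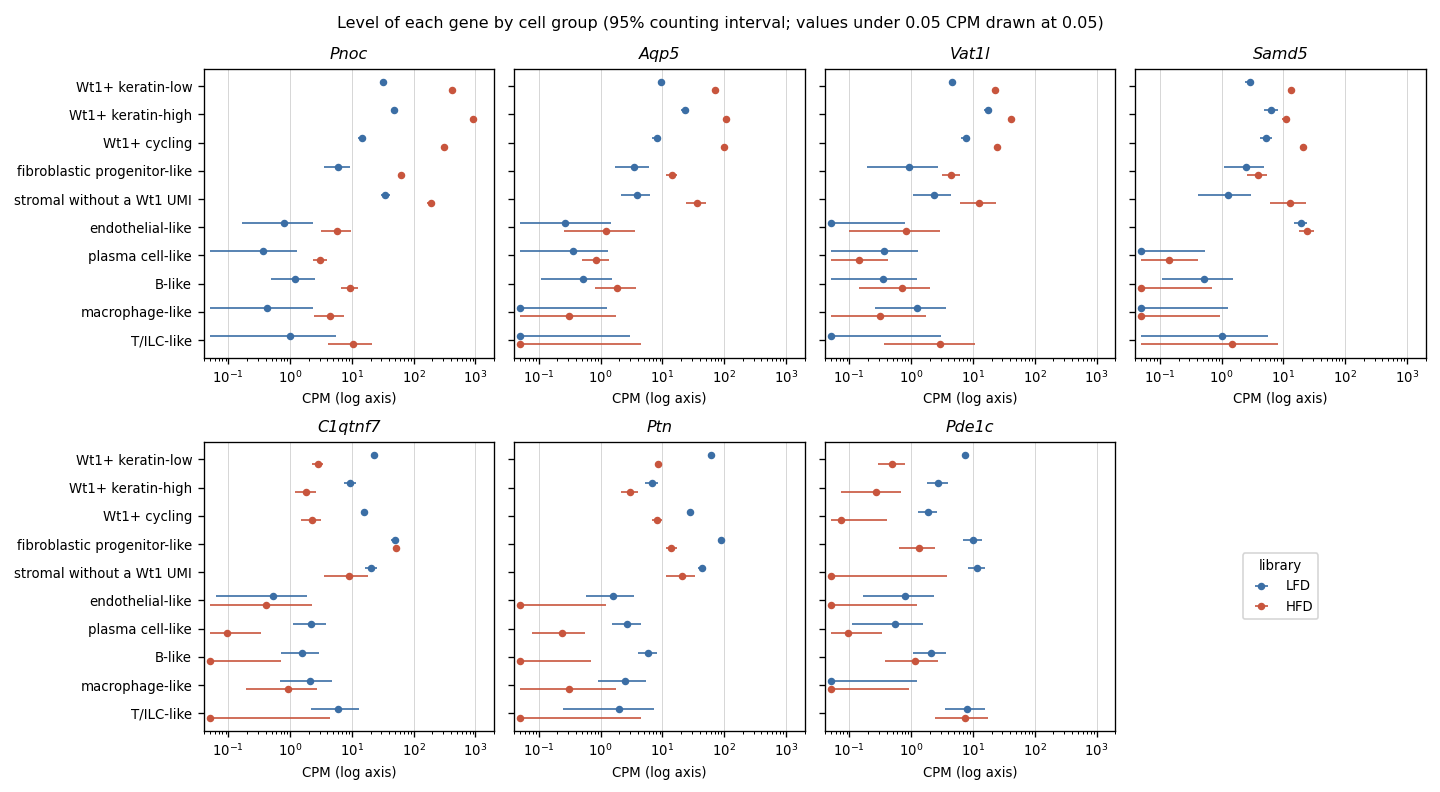
Level of each gene (CPM, log axis) in 10 cell groups of the LFD (blue) and HFD (red) library, with 95% counting intervals. Pnoc, Aqp5 and Vat1l are highest in keratin-high Wt1+ cells and lower in the immune and endothelial-like groups shown than in any Wt1+ group (small groups such as neutrophil-like cells are not drawn), C1qtnf7 is at 49.8 and 51.2 CPM in fibroblastic progenitor-like cells, and Samd5 is high in endothelial-like cells of both libraries.

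Stromal cells without a Wt1 UMI (366 LFD, 102 HFD cells, with medians of 10247.5 and 6297 UMIs) showed shifts in the same directions. Pnoc was at 34.8 and 192 CPM in them, 5.52-fold higher in HFD (4.35 to 7.01), and Aqp5 at 3.84 and 35.6 CPM from 15 and 28 UMIs. Vat1l was at 2.30 and 12.7 CPM and Samd5 at 1.28 and 12.7 CPM, each from at most 10 UMIs. C1qtnf7 was at 20.7 and 8.90 CPM, 2.33-fold lower in HFD (1.08 to 5.98), Ptn at 43.2 and 20.3 CPM, 2.13-fold lower (1.27 to 3.804), and Pde1c had 45 UMIs in LFD and 0 in HFD. In these cells the 8 plasma cell genes summed to 19.96 CPM in LFD and 263 CPM in HFD, and the 4 epididymal genes to 45.3 CPM in LFD with all 4 at 0 in HFD, and their part in the levels was not tested. A Wt1 UMI can be missed in a cell that has the transcript, and the shifts are not shown to be particular to the Wt1+ cells.

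A further stromal group was the fibroblastic progenitor-like cells, called precursors below for short, though their fate was not tested. They had at least 7 of 11 fibroblastic markers (254 LFD, 607 HFD cells), with Pdgfra on the list but not required. There 4.36% of genes were 2-fold higher in HFD and 1.32% 2-fold lower. C1qtnf7, which was 7.90-fold lower in HFD Wt1+ cells, stood in these precursors at 49.8 CPM (42.4 to 58.1) on LFD against 51.2 CPM (46.2 to 56.5) on HFD, a ratio of 1.03 (0.853 to 1.24). The precursors themselves differed between the libraries: 5 of their 11 fibroblastic markers were at least 2-fold higher in HFD and none 2-fold lower, and 113 of the 254 LFD cells had exactly 7 of the markers against 124 of the 607 HFD cells. The part of this in the level of C1qtnf7 was not tested. At least 1 C1qtnf7 UMI was found in 40.6% and 41.0% of them. Of all C1qtnf7 UMIs of kept cells, 79.4% were in Wt1+ cells in LFD and 25.3% in HFD. The difference between the Wt1+ cells and the precursors in this ratio was not tested. Of the 4 genes with at least 50 UMIs in the precursors, Pnoc and Aqp5 were 2-fold higher, Ptn was 2-fold lower and C1qtnf7 was within 2-fold.

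The growth factor Ptn was lower in HFD in the precursors too, at 89.0 and 14.0 CPM, a 6.35-fold difference (5.06 to 8.01). Pde1c was at 9.96 and 1.32 CPM in the precursors, from 32 and 10 UMIs. The 6 neutrophil genes summed to 63.5 and 5.16 CPM in the same cells and the 8 plasma cell genes to 19.6 and 56.6 CPM, and their part in these levels was not tested. Pnoc was at 5.91 CPM in LFD against 62.0 CPM in HFD, and Aqp5 at 3.42 and 14.1 CPM, both well under their Wt1+ levels. Most of these precursors had a Wt1 UMI as well (212 of 254 in LFD and 499 of 607 in HFD), so they border on the Wt1+ set and were kept apart only by the fibroblastic markers.

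Samd5 was also found outside the stroma. In endothelial-like cells it stood at 19.0 CPM on LFD (14.9 to 23.9, 72 UMIs) against 23.7 CPM on HFD (18.0 to 30.7, 58 UMIs), intervals that overlap, and the LFD level was above that of any LFD Wt1+ group. Pde1c UMIs in T/ILC-like cells (T cells and innate lymphoid cells) came to 8.03 CPM in LFD against 7.39 CPM in HFD from 8 and 5 UMIs.

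Low levels were also seen in immune cells, where free RNA in the droplets can give UMIs. B-like cells, with medians of 4130 and 4264.5 UMIs, showed Pnoc at 1.22 CPM in LFD against 9.30 CPM in HFD, and macrophage-like cells at 0.415 and 4.38 CPM. Like the Wt1+ level, both were higher in HFD. Whether these UMIs came from free RNA or from the immune cells themselves was not tested. In HFD B-like cells Ptn and C1qtnf7 had no UMI, against 34 and 9 UMIs in LFD, which puts Ptn at least 8.46-fold lower there with a floor of 3 counts for the group. The Pnoc level of HFD Wt1+ cells lay far above these values, whereas the HFD level of Pde1c in Wt1+ cells, 0.349 CPM (0.218 to 0.528), had an interval that overlapped that of HFD B-like cells (1.16 CPM, 0.378 to 2.71, from 5 UMIs). In HFD plasma cell-like cells Pde1c was at 0.0948 CPM (0.0115 to 0.342, from 2 UMIs), so that with so few UMIs the HFD level cannot be placed against a background.

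To compare the share of cells with a UMI and the level in those cells, each Wt1+ cell was thinned to the same depth, 2000 UMIs, leaving out 33 LFD and 46 HFD cells that were shallower. Pnoc was then detected in 3.99% of LFD cells (3.49 to 4.53%) and 32.5% of HFD cells (31.0 to 34.1%). In B-like cells thinned to that depth, the shares were 0.264% and 2.12%. Before thinning, 10.3% and 56.5% of Wt1+ cells had a Pnoc UMI. The positive cells held a mean of 1.81 and 3.39 UMIs, with standard errors over cells of 0.103 and 0.0977, and 77.0% of the Pnoc shift on the log2 scale fell on the share. The detected share itself rises with the level per cell, so this split does not tell more cells with the transcript from more transcript in each cell.

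At 5000 UMIs, with 83 LFD and 81 HFD cells left out, the Pnoc shares were 6.77% and 43.2% and the positive cells held 2.63 and 6.39 UMIs. The part of the shift that fell on the share was 67.6% at that depth and 60.2% at 10000 UMIs, where the ratio of the levels per positive cell was 3.37 against 1.87 at 2000. Without thinning that ratio was 4.09 and the ratio of the shares 5.50. Thinning to 10000 UMIs left out 1405 LFD and 252 HFD cells, so that the set of cells changed with the depth, and more in LFD. Cells with 10 or more Pnoc UMIs made up 0.248% of LFD cells (14 cells) and 9.09% of HFD cells (315 cells) at 5000 UMIs. Pnoc thus differed both in share and in level per positive cell, and its HFD distribution was broad, with a variance 13.3 times the mean.

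Aqp5 was detected in 1.72% and 12.6% of cells at 2000 UMIs (B-like 0.0881% and 0.499%), with 1.06 and 1.29 UMIs per positive cell. Most positive cells held a single Aqp5 UMI at that depth, which leaves the level per cell little room to differ. At 10000 UMIs the levels were 1.56 and 2.29 UMIs, a ratio of 1.46. Without thinning the ratio was 1.92. For Vat1l the shares were 1.44% and 4.91%, and for Samd5 0.667% and 2.77%. Levels per positive cell lay between 1.01 and 1.09 UMIs for both genes in both libraries, close to a single UMI. The HFD to LFD ratio of these levels was 1.08 (1.02 to 1.139) for Vat1l and 1.02 (0.933 to 1.10) for Samd5, with intervals over cells, which are not replicates. Before thinning, Vat1l was in 7.17% and 28.7% of Wt1+ cells and Samd5 in 3.93% and 15.3%. In B-like cells, which were shallower, Vat1l was in 0.171% and 0.365%. Samd5 was in 0.257% of LFD and 0 of 822 HFD B-like cells, which allows a share of up to 0.365%.

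Among the genes lower in HFD, C1qtnf7 was in 3.92% of LFD and 0.457% of HFD cells, and Pde1c in 1.49% and 0.0571%. In B-like cells C1qtnf7 was in 0.352% in LFD and 0 of 802 in HFD, which allows a share of up to 0.374%, and Pde1c in 0.352% and 0.249%. The HFD share of Pde1c in Wt1+ cells rested on 2 cells, as did that in B-like cells, and is not read as expression. Ptn was in 6.43% and 1.23%, against 0.441% of LFD and 0 of 802 HFD B-like cells, and its positive cells held 1.61 and 1.51 UMIs. At 5000 UMIs the level of Ptn per positive cell was 2.43 UMIs in LFD and 1.79 in HFD, with standard errors over cells of 0.0998 and 0.138. At that depth 14 LFD cells had 10 or more Ptn UMIs and 0 of 3467 HFD cells did, which allows a share of up to 0.0865%.

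**Figure D2:**
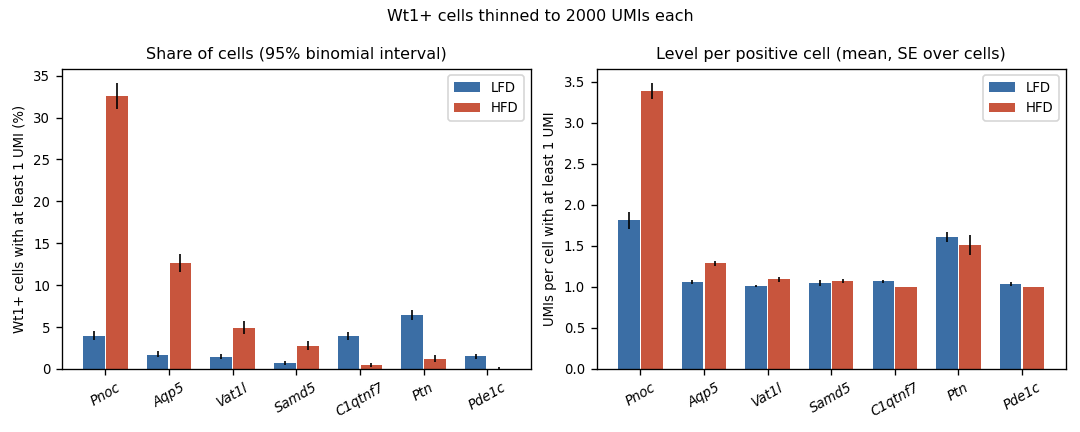
Wt1+ cells of both libraries thinned to 2000 UMIs each. The left panel gives the percentage of cells with at least 1 UMI of each gene and its 95% binomial interval, the right panel the mean UMIs in those cells with the standard error over cells, which are not replicates. The shares differ between the libraries for all 7 genes, and the level per positive cell differs most for Pnoc (1.81 and 3.39 UMIs).

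Level was then set against keratin, as the sign of mesothelial character. In HFD, Pnoc climbed from 186 CPM in Wt1+ cells with no keratin UMI to 970 CPM in those with over 2000 CPM of keratins. In LFD it was at 25.3 CPM (23.7 to 26.9) without keratin and 49.6 CPM (41.6 to 58.7) above 2000 CPM, with values from 21.7 to 47.1 CPM in no steady order between. Vat1l climbed in both libraries, from 2.77 to 24.1 CPM in LFD against from 15.9 to 43.1 CPM in HFD. Ptn ran the other way, from 76.5 CPM in LFD cells without keratin to 4.07 CPM above 2000 CPM, and from 15.9 to 0.862 CPM in HFD. Samd5 rose from 2.23 to 7.03 CPM in LFD and went from 13.7 CPM without keratin through 18.4 CPM in the lowest keratin bin to 6.04 CPM in HFD, so that above 2000 CPM of keratins its intervals overlapped (4.23 to 10.98 in LFD, 3.74 to 9.23 in HFD). C1qtnf7 and Pde1c, like Ptn, were highest in LFD cells without keratin, at 26.5 and 7.76 CPM.

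**Figure D3:**
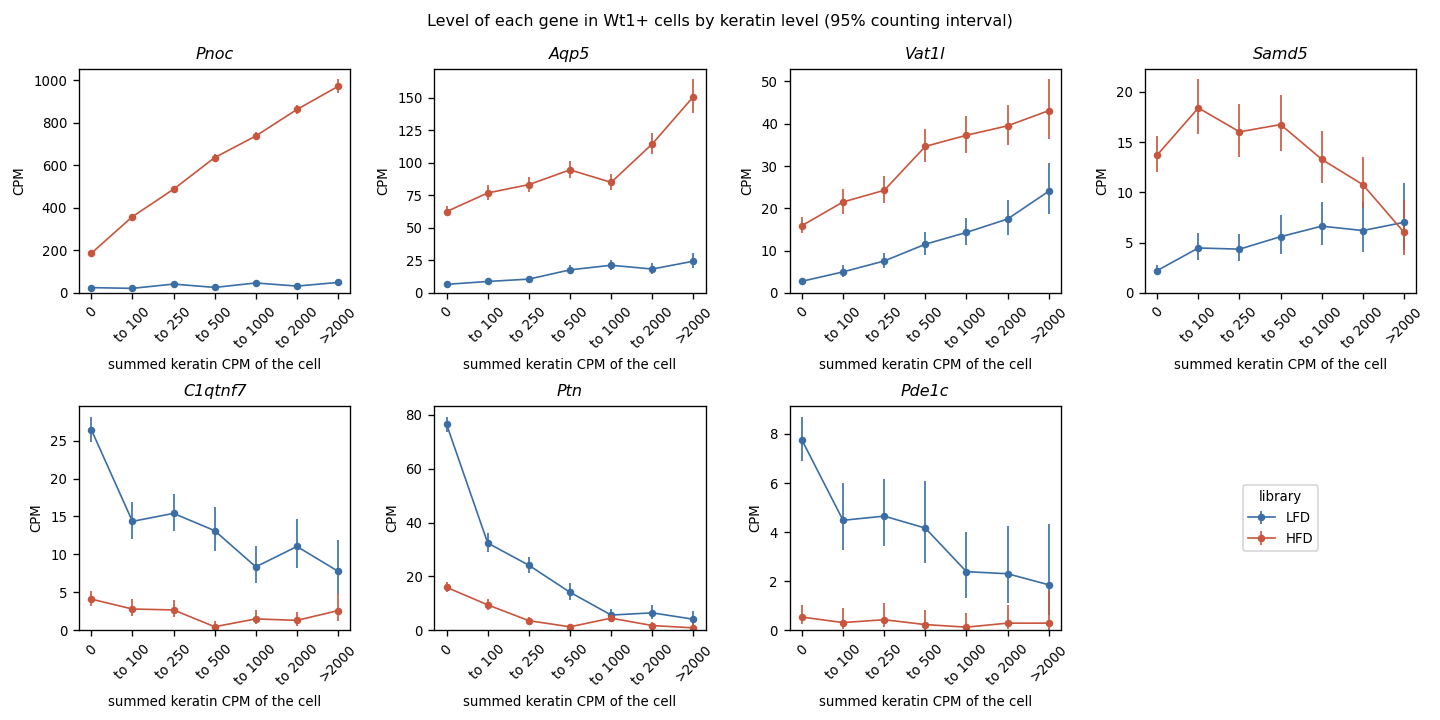
Level of each gene (CPM, linear axis from 0) in Wt1+ cells binned by the summed CPM of Krt7, Krt8, Krt18 and Krt19, with 95% counting intervals (LFD blue, HFD red). Pnoc climbs with keratin in HFD (186 to 970 CPM) and less, without a steady order, in LFD (25.3 to 49.6 CPM), and Ptn is highest in LFD cells without a keratin UMI (76.5 CPM).

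Cells without a keratin UMI made up 53.4% of LFD and 28.1% of HFD Wt1+ cells, so the make-up of the set as detected differed. HFD cells were deeper, which makes a keratin UMI less likely to be missed, and the part of depth was not tested. When HFD cells were weighted to the LFD make-up over the 7 keratin bins, the ratio to LFD was 13.1 for Pnoc, 7.19 for Aqp5, 3.37 for Vat1l and 3.78 for Samd5. C1qtnf7 was then 6.41-fold lower, Ptn 4.67-fold and Pde1c 13.8-fold. Conversely, LFD levels weighted to the HFD make-up gave ratios of 1.07 for Pnoc, 1.35 for Vat1l and 0.697 for Ptn.

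A division by how many of the other 12 mesothelial markers (uroplakins, keratins, Msln and others) a cell showed, brought 5 of the 7 genes closer to equal levels than keratin did. None of them was seen in 25.2% of LFD and 3.69% of HFD Wt1+ cells, and at least 10 in 3.33% and 11.3%. Ptn was at 112 CPM in LFD cells with none and 3.26 CPM in those with at least 10, and at 65.3 and 1.63 CPM in the HFD cells of those classes. The HFD level in cells with none rested on 105 Ptn UMIs in 131 cells. At the LFD make-up over these classes Ptn was 2.06-fold lower in HFD, against 6.49-fold as measured, a value that leaned on those 131 cells. C1qtnf7 was 4.28-fold lower, Vat1l 2.59-fold, Aqp5 6.57-fold and Pnoc still 9.48-fold higher. Samd5 and Pde1c moved the other way, to 4.11-fold higher and 18.6-fold lower. HFD cells were deeper, so that an equal number of markers seen does not mean equal marker levels, and what part depth has in this was not tested.

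Pnoc was higher in HFD in every one of these 11 classes, from 18.5 and 49.1 CPM in cells with none of the markers to 39.4 and 1055 CPM in those with at least 10. Aqp5 was at 4.13 and 43.5 CPM in cells with none, and at 24.7 and 118 CPM in cells with at least 10. Samd5 went against the others of its direction: in HFD it was at 19.3 CPM in cells with none of the markers and 6.92 CPM in cells with at least 10.

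**Figure D4:**
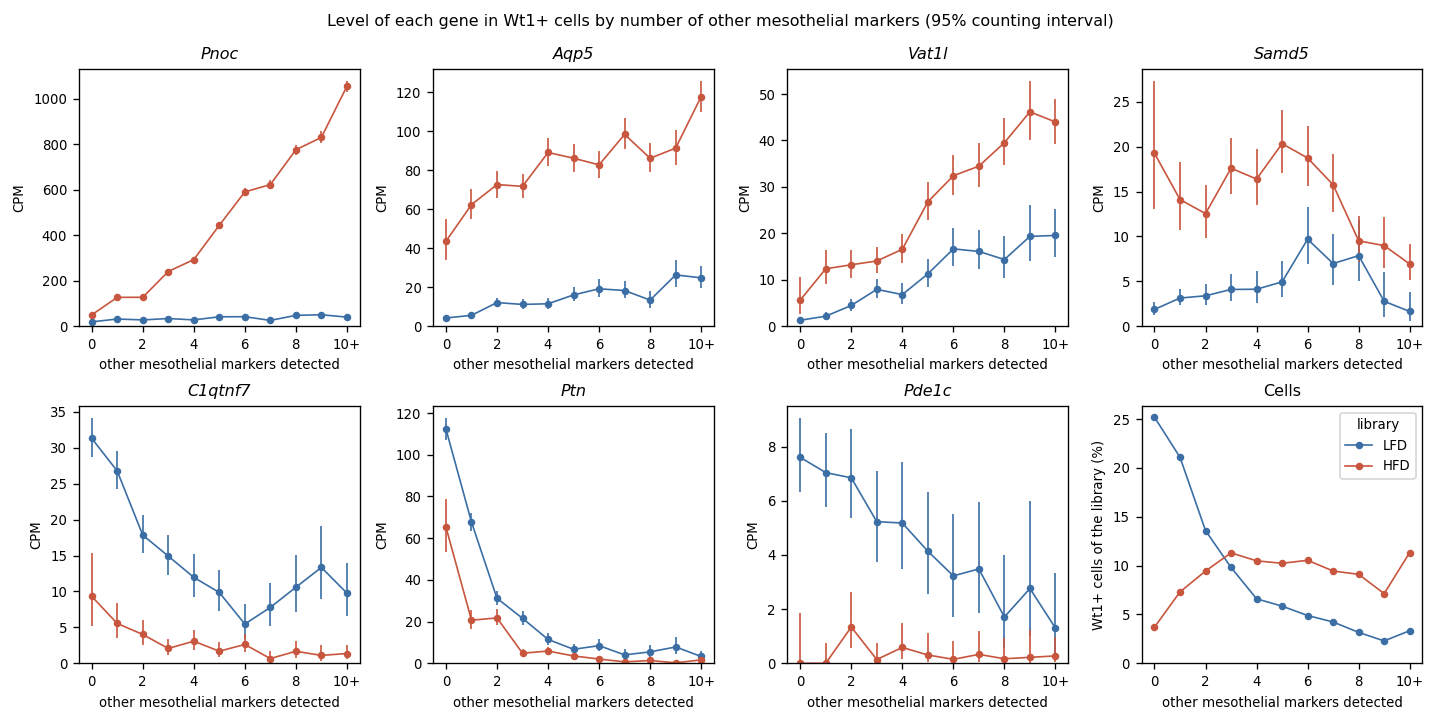
Level of each gene (CPM) in Wt1+ cells by the number of other mesothelial markers detected, with 95% counting intervals (LFD blue, HFD red), and, bottom right, the percentage of Wt1+ cells in each class. Pnoc rises to 1055 CPM in HFD and stays under 50 CPM in LFD, Ptn drops steeply with marker number in both libraries, and 25.2% of LFD against 3.69% of HFD cells show none of the markers.

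Which genes kept company in single cells was compared within each library, a contrast that the choice of genes between libraries did not use, though cells of 1 library are not replicates. In LFD, Wt1+ cells with a Pnoc UMI after thinning to 5000 UMIs (382 cells) had Aqp5 at 27.7 CPM against 9.73 CPM in the 5264 without, a ratio of 2.85 (2.34 to 3.44), and Vat1l at 15.3 against 6.34 CPM, a ratio of 2.41 (1.84 to 3.10). Ptn was at 23.1 against 48.3 CPM. In HFD, Pnoc-positive cells (1499 of 3467) had Vat1l 2.39-fold higher (2.16 to 2.64) but Aqp5 only 1.18-fold higher (1.12 to 1.247), and Ptn at 2.66 against 10.5 CPM. Vat1l thus went with Pnoc in both libraries, and Aqp5 went with it mainly in LFD.

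Ptn-positive cells ran the other way for some of the genes. In LFD (642 cells) they had C1qtnf7 at 44.1 against 16.7 CPM, a ratio of 2.64 (2.34 to 2.99), and Pdgfra 1.46-fold higher, with Upk3b at 11.8 against 40.5 CPM and summed keratins at 72.1 against 339 CPM. In HFD only 78 cells were Ptn-positive, and they again had more C1qtnf7, at 14.2 against 2.18 CPM (19 UMIs). Samd5 had a ratio of 0.722 (0.445 to 1.12) in LFD and 0.982 (0.588 to 1.54) in HFD, both within counting error of 1. Pde1c, also lower in HFD, went clearly with neither Pnoc nor Ptn. In LFD it was found with Ptn in 21 cells, against 18.8 from the product of the shares, and with Pnoc in 13 against 11.2. Aqp5 and Ptn were found together in 16 HFD cells, against 19.3 from the product.

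**Figure D5:**
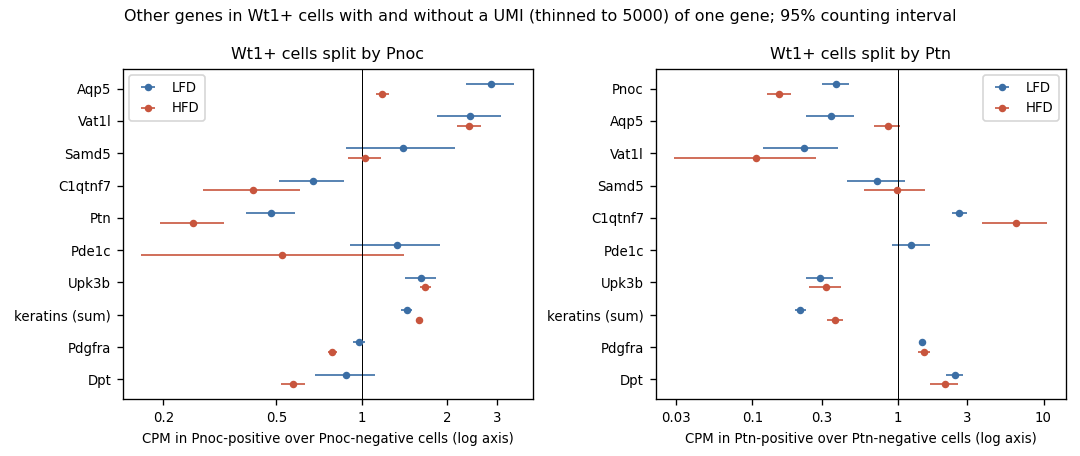
CPM of other genes in Wt1+ cells with a UMI of Pnoc (left) or Ptn (right), after thinning to 5000 UMIs, over that in cells without, on a log axis with 95% counting intervals (LFD blue, HFD red). Vat1l, Upk3b and the keratins lie above 1 for Pnoc and below 1 for Ptn in both libraries, and C1qtnf7 does the reverse.

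Across 10017 genes in keratin-low cells, those that most marked Ptn-positive LFD cells were Ctla2a, 6.79-fold higher, the imprinted RNA H19, 5.73-fold, the diamine oxidase Aoc1, 5.28-fold, Lrrc17, 4.74-fold, the secreted Wnt modulator Sfrp1, 4.54-fold, and the basement membrane collagen Col15a1, 4.36-fold. Ptn itself left out, these 6 had the highest ratios. In all, 64 genes were at least 2-fold higher, a count from which Ptn was not left out, and 99 were at least 2-fold lower. Pnoc-positive HFD cells had 29 of 9283 genes at least 2-fold higher, a count from which Pnoc was not left out, and 41 lower. Among the higher ones were Igfbp5, an IGF-binding protein, 4.42-fold, Akr1c18, 2.92-fold, and Cldn3, a tight junction protein, 2.81-fold. They had less H19, at 1.28 against 12.6 CPM, and less Col15a1, at 2.18 against 18.8 CPM. In LFD the gene with the lowest ratio in Pnoc-positive cells was Spp1, which encodes osteopontin, at 5.04 against 66.7 CPM.

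Over 20 sums of cells (10 cell groups in both libraries), the genes whose log2 levels ran most like Pnoc were Adamts19, Pkhd1l1 and the uroplakin Upk3b, with Pearson's r from 0.940 to 0.944. Those most like Aqp5 were Baiap2l1, Adamts19 and Sez6l (0.954 to 0.971), and those most like Vat1l were the endocytic receptor Lrp2, the uroplakin Upk1b and Baiap2l1 (0.961 to 0.971). Samd5 ran with Spry4, Crim1 and Cd34 (0.926 to 0.95). C1qtnf7 ran with Ms4a4d, Arsi and Gpx3 (0.948 to 0.952). Among the genes most like Ptn were Mpo (0.953) and Aoc1 (0.952). For Pde1c no gene passed 0.813, the value of 4833438C02Rik, and Tnfsf11 and Calca came next. The sums of a library share its depth and sort, and the values are descriptions.

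The other genes of each pathway were then counted, against the 2.57% of all genes that were 2-fold higher in HFD Wt1+ cells and the 2.55% that were 2-fold lower. Oprl1, the nociceptin receptor, had 22 UMIs in LFD and 13 in HFD Wt1+ cells. Of 7 genes of the opioid system only 2 had enough UMIs, with Penk 3.35-fold higher in HFD from 17 and 47 UMIs. Of 11 other aquaporins 4 were measured and 1, Aqp2, was at least 2-fold higher, from 78 and 257 UMIs. In keratin-low cells Aqp3 also passed 2-fold, at 0.853 and 1.77 CPM (43 and 61 UMIs). In keratin-high cells 3 were measured, with Aqp2 higher and Aqp1 lower in HFD. Aqp2 lies 6234 bases before Aqp5 on the same strand (chr15:99579055-99584547). Aqp1, the water channel of endothelium and mesothelium, was at 7.85 and 5.74 CPM in all Wt1+ cells and at 17.2 and 7.44 CPM in keratin-high ones.

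No other C1q and TNF relative of the 5 measured passed 2-fold in all Wt1+ cells, though in the keratin-low ones C1qtnf2 did, at 1.49 CPM in LFD (75 UMIs) and 0.581 CPM in HFD (20 UMIs). Of 11 measured genes of the pleiotrophin system only Ptprz1, the phosphatase receptor of pleiotrophin, did, at 1.48 CPM in LFD (113 UMIs) and 0.0634 CPM in HFD (4 UMIs), and Mdk, the other member of the growth factor family, was at 86.9 and 44.6 CPM, just within 2-fold. In keratin-low cells both were 2-fold lower in HFD, with Mdk at 109.8 and 50.1 CPM. None of 10 measured adenylate and guanylate cyclase genes and none of 4 of the PDE1 and calmodulin list passed 2-fold, with Pde1a at 13.0 and 8.65 CPM. None of the 4 VAT1 and SAMD relatives did.

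Markers of other cell types were also found in Wt1+ cells. The 8 general immune genes summed to 351 CPM in LFD and 347 CPM in HFD, of which Arhgdib made up 338.6 and 339 CPM, while none of the other 7 was above 4.08 CPM. The 6 mural genes summed to 81.3 and 82.2 CPM. Other sums differed between the libraries. The 6 neutrophil genes summed to 17.4 CPM in LFD against 3.36 CPM in HFD, and the 8 plasma cell genes to 23.5 and 52.6 CPM. The 4 spermatid genes summed to 1.65 CPM in LFD with all 4 at 0 in HFD, and the 4 epididymal genes to 0.366 CPM with all 4 at 0 in HFD. Their part in the levels described here was not tested. The libraries shared 27 barcodes, and without them Pnoc was at 30.0 and 508 CPM and Ptn at 46.8 and 6.71 CPM.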

How the data were processed

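The deposited matrices held UMI counts per gene and barcode, whole numbers with no normalization, made by the authors. The submitters' processing notes name Cell Ranger 4.0.0, STAR, Seurat 4.1.0, bcl2fastq 2.17.1.14 and mm10. The 7 genes and all lists were chosen with earlier results of these data known.

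Barcodes with 500 to 40000 UMIs, at least 100 genes and under 12.5% mitochondrial UMIs were kept. Cells were grouped by marker UMIs, without clustering or a doublet caller: immune and plasma cells by at least 4 of 8 markers, endothelial by 3 of 8, mural by 3 of 6 and fibroblastic by 7 of 11, and droplets with markers of more than 1 lineage were left out as mixed (417 LFD, 386 HFD). Counts were summed per library and group and given as CPM with exact 95% Poisson intervals, ratios with exact conditional binomial intervals and shares with Clopper-Pearson intervals. Cells were thinned without replacement. Genes most like each member were ranked by Pearson's r of log2(CPM + 1). All 7 genes are named, with the 3 genes most like each (for Ptn, 1 is not reported here), and pathway genes past 2-fold with at least 20 UMIs in 1 library; genes marking positive cells were named after their values were seen, from the highest and lowest ratios. With 1 library per diet no test was made. Ratios and calls were tested on simulated data. Python 3.11.15, NumPy 2.4.6, SciPy 1.17.1 and pandas 2.3.3 were used. Alternatives are given below.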

Additional observations from a re-analysis of the deposited data

Results flagged for a closer look

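Barcodes outside the filter, 1065 in LFD and 1094 in HFD, entered no comparison. In them Pnoc was at 7.05 CPM in LFD (23 UMIs) and 147.5 CPM in HFD (949 UMIs), Aqp5 at 4.90 and 41.97 CPM, and Samd5 at 2.45 and 12.12 CPM. Only levels higher in HFD were looked for, and these 3 were noted because they were above the LFD level by more than counting error. Vat1l was not, at 6.44 and 6.84 CPM, a ratio of 1.06 (0.619 to 1.88). C1qtnf7 was at 7.35 and 2.80 CPM, Ptn at 14.7 and 2.80 CPM and Pde1c at 7.97 and 0.311 CPM. Whether these levels differ between diets was not tested, with 1 library each. The barcodes are of the same libraries on which the genes were chosen, so they give no separate support.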

How the results depend on the processing

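Every comparison between diets is between 1 library of pooled mice per diet, so no setting supplies the missing replicate. No paired analysis was possible because each diet had 1 library. All 76 alternative values of the 7 level ratios kept their direction, which the choice of genes with large differences made likely in advance. Of these, 45 stayed within the counting interval and 31 moved outside it, and the cause of each move was not tested unless the setting itself defines it. With median-ratio scaling, the HFD to LFD ratio in Wt1+ cells was 15.6 for Pnoc and 7.35 for Aqp5. With the mean of per-cell CPM, the HFD to LFD ratio in Wt1+ cells was 15.2 for Pnoc, 0.153 for C1qtnf7 and 0.132 for Ptn. With a mitochondrial limit of 5%, which left 1105 LFD and 823 HFD cells, the HFD to LFD ratio in Wt1+ cells was 15.3 for Pnoc, 10.6 for Aqp5, 0.152 for C1qtnf7, 0.358 for Ptn and 0.114 for Pde1c. In cells of 5000 to 20000 UMIs, the HFD to LFD ratio in Wt1+ cells was 18.6 for Pnoc, 6.81 for Aqp5 and 3.14 for Samd5. At the LFD keratin make-up, the HFD to LFD ratio in Wt1+ cells was 13.1 for Pnoc, 7.19 for Aqp5, 3.37 for Vat1l, 0.156 for C1qtnf7 and 0.214 for Ptn. At the LFD make-up of mesothelial markers, the HFD to LFD ratio in Wt1+ cells was 9.48 for Pnoc, 6.57 for Aqp5, 2.59 for Vat1l, 0.234 for C1qtnf7 and 0.485 for Ptn. With at least 3 other mesothelial markers required in place of Wt1, the set was 2395 LFD and 2861 HFD cells. The HFD to LFD ratio in that set was 5.73 for Aqp5, 2.52 for Vat1l, 2.87 for Samd5, 0.172 for C1qtnf7 and 0.254 for Ptn. With the B-like level subtracted, the HFD to LFD ratio in Wt1+ cells was 4.37 for Samd5 and 0.176 for Ptn, and no ratio could be had for Pde1c, whose HFD level was below that of B-like cells. With mixed droplets kept, the HFD to LFD ratio in Wt1+ cells was 0.152 for C1qtnf7. Without thinning, 2 genes (Pnoc and Aqp5) in place of 1 (Pnoc) differed at least 1.5-fold in UMIs per positive cell. The make-up settings, the omission of shared barcodes and thinning to 10000 UMIs were chosen after seeing the data. Depth limits Pde1c, with 22 HFD UMIs, and the level per positive cell of every gene near 1 UMI.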
